A study of Rattus norvegicus with 12 samples.

Results

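The platelet-derived growth factor (PDGF), fibroblast growth factor (FGF) and vascular endothelial growth factor (VEGF) genes described here are 10 in number, namely the PDGF ligands *Pdgfa*, *Pdgfb* and *Pdgfc*, the PDGF receptors *Pdgfra* and *Pdgfrb*, the FGF ligands *Fgf2* and *Fgf7*, the FGF receptor *Fgfr1*, and the VEGF ligands *Vegfa* and *Vegfc*. They were chosen by gene symbol, and each of the 10 had exactly 1 probe set among the 23188 on the array, of which 15049 carry 1 gene name. Rat vascular smooth muscle cells (RVSMCs), taken from the thoracic aorta of male Sprague-Dawley animals, were transfected for 48 h with 100 nM of a negative control GapmeR (NCGap, spelled NGGap in the sample titles) or of a GapmeR against the long noncoding RNA *Alivec* (*Alivec*Gap). GapmeRs are antisense oligonucleotides that recruit RNase H to cut the RNA they pair with, and *Alivec*Gap is a single GapmeR, selected by the study from several that were tested. Per the study's methods, the transfected cells were depleted of serum before treatment. They then received 100 nM angiotensin II (AngII) or an equal volume of PBS for 3 h. Crossing 2 GapmeRs with 2 treatments gave 4 groups of 3 arrays each. All 4 groups were thus transfected, and none was left without a GapmeR. *Alivec* itself has no named probe set, so its knockdown was not checked on these arrays. The study measured it by quantitative PCR and reported a partial reduction of AngII-induced *Alivec* with this GapmeR.

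PDGFs are secreted dimers that bind receptor tyrosine kinases, and they are classical mitogens and chemoattractants of smooth muscle. FGFs bind FGF receptors together with heparan sulfate on the cell surface. VEGFs act mainly on endothelial cells, for which smooth muscle is one source of ligand, and all 3 families signal through Ras and extracellular signal-regulated kinase (ERK). AngII acts on smooth muscle through its own G protein-coupled receptor, which also feeds into ERK.

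Signals were log2 values from a Clariom S rat array, and a signal under log2 6 was treated as low or no expression, following the study's methods. Array medians lay between 6.68 and 6.76, and arrays of the same group correlated at 0.992 to 0.995. A log2 signal of 6 was reached by 14796 of the 23188 probe sets on 3 or more arrays, and these were tested with limma, with Benjamini-Hochberg adjustment over all 14796; below, a gene rose or fell only where its adjusted p was under 0.05. With NCGap, AngII moved 1968 probe sets up and 2652 down, but 2309 up and 1836 down once arrays were centred on their medians. All 10 smooth muscle markers had a mean signal of at least 6, among them *Acta2*, *Myh11* and *Tagln*. Of the endothelial markers 2 of 9 had a mean of at least 6 (*Cldn5* and *Esam*), and of the leukocyte markers 2 of 9 (*Cd68* and *Tyrobp*). The defining markers *Pecam1* and *Cdh5* of endothelium and *Ptprc* of leukocytes stayed under 6 on all 12 arrays, whereas 6 of 8 adventitial fibroblast markers and 6 of 8 pericyte markers had means of at least 6.

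All 10 genes passed the filter on low signal, but not in the same way. Of these, 8 were at or above log2 6 on all 12 arrays, while *Fgf7* reached 6 on 6 arrays, which were the 6 AngII arrays, and *Pdgfb* on 5. *Fgf7* therefore entered the test only through the groups in which it was high. *Pdgfb* reached 6 on 3 NCGap AngII arrays, 1 *Alivec*Gap AngII array and 1 *Alivec*Gap PBS array. Without the NCGap AngII group, in which its mean was highest, *Pdgfb* would not have passed the filter. The *Vegfa* probe set is annotated to 13 RefSeq transcripts, so its isoforms were not told apart.

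The promoters of *Pdgfa*, *Fgf2* and *Fgf7*, which rose with AngII, and of *Pdgfra*, which fell, are shown with that of *Vegfa*, which did not pass the test. Each is 300 bases from RefSeq (rat build GRCr8), from 250 bases before to 50 bases after the annotated start, on the strand of the gene, and capitals mark the motifs found. Both strands were searched for the letters of EGR1 (GCGNGGGCG), SP1 (GGGCGG), AP-1 (TGANTCA), the cyclic AMP response element (TGACGTCA) and the hypoxia response element (ACGTG). In *Pdgfa* (chr12:20759116-20759415, plus strand) the capitals are an SP1 match on the opposite strand. In *Fgf2* (chr2:122164204-122164503, plus strand) they are the hypoxia response letters, in *Pdgfra* (chr14:33408467-33408766, minus strand) an AP-1 match, and in the first *Vegfa* window (chr9:22452604-22452903, plus strand) 3 SP1 matches. *Fgf7* (chr3:133735377-133735676, plus strand) held none of the motifs.
Pdgfa: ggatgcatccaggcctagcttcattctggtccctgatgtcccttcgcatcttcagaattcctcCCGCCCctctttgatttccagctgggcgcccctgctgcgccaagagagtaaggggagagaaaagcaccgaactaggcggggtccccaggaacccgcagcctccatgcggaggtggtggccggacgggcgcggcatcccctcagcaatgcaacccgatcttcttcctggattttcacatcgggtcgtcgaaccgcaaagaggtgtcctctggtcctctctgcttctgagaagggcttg
Fgf2: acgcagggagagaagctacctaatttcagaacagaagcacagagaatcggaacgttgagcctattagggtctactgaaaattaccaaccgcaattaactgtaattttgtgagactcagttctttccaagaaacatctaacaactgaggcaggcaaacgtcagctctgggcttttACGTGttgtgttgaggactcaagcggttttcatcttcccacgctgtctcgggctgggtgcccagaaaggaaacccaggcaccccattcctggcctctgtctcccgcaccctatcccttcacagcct
Fgf7: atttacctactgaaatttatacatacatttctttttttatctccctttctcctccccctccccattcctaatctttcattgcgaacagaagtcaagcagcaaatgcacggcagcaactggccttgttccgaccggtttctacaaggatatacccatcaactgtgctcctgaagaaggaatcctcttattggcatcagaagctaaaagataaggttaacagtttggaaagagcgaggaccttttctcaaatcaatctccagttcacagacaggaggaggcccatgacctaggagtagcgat
Pdgfra: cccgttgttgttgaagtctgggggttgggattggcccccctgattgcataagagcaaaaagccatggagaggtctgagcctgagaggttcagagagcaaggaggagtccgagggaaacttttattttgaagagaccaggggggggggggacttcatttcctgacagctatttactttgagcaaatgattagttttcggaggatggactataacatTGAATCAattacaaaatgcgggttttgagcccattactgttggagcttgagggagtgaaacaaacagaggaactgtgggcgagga
Vegfa: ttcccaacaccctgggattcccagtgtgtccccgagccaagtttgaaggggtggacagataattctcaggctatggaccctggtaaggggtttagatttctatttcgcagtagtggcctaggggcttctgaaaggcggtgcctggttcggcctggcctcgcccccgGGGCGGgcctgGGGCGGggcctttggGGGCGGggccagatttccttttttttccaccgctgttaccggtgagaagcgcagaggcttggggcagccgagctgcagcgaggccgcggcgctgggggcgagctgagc

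Promoter windows were matched for 8 of the 10 genes, in 9 windows, and *Fgfr1* and *Pdgfrb* were not matched. The SP1 letters were in 4 of the 9 windows and in 33.1% of all 33469 rat windows. The EGR1 letters were in 1 (*Vegfc*) against 4.98% of all windows, the AP-1 letters in 1 (*Pdgfra*) against 7.33%, the hypoxia response letters in 1 (*Fgf2*) against 19.3%, and the cyclic AMP response letters in 0 against 1.83%. The G and C content was 43.7% in *Fgf7*, 48.0% in *Pdgfra*, 49.7% in *Fgf2*, 60% in *Pdgfa* and 63.3% in the first *Vegfa* window, and the median of all windows was 51.7%. A match is a run of letters and not a measured binding site.

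**Figure D1:**
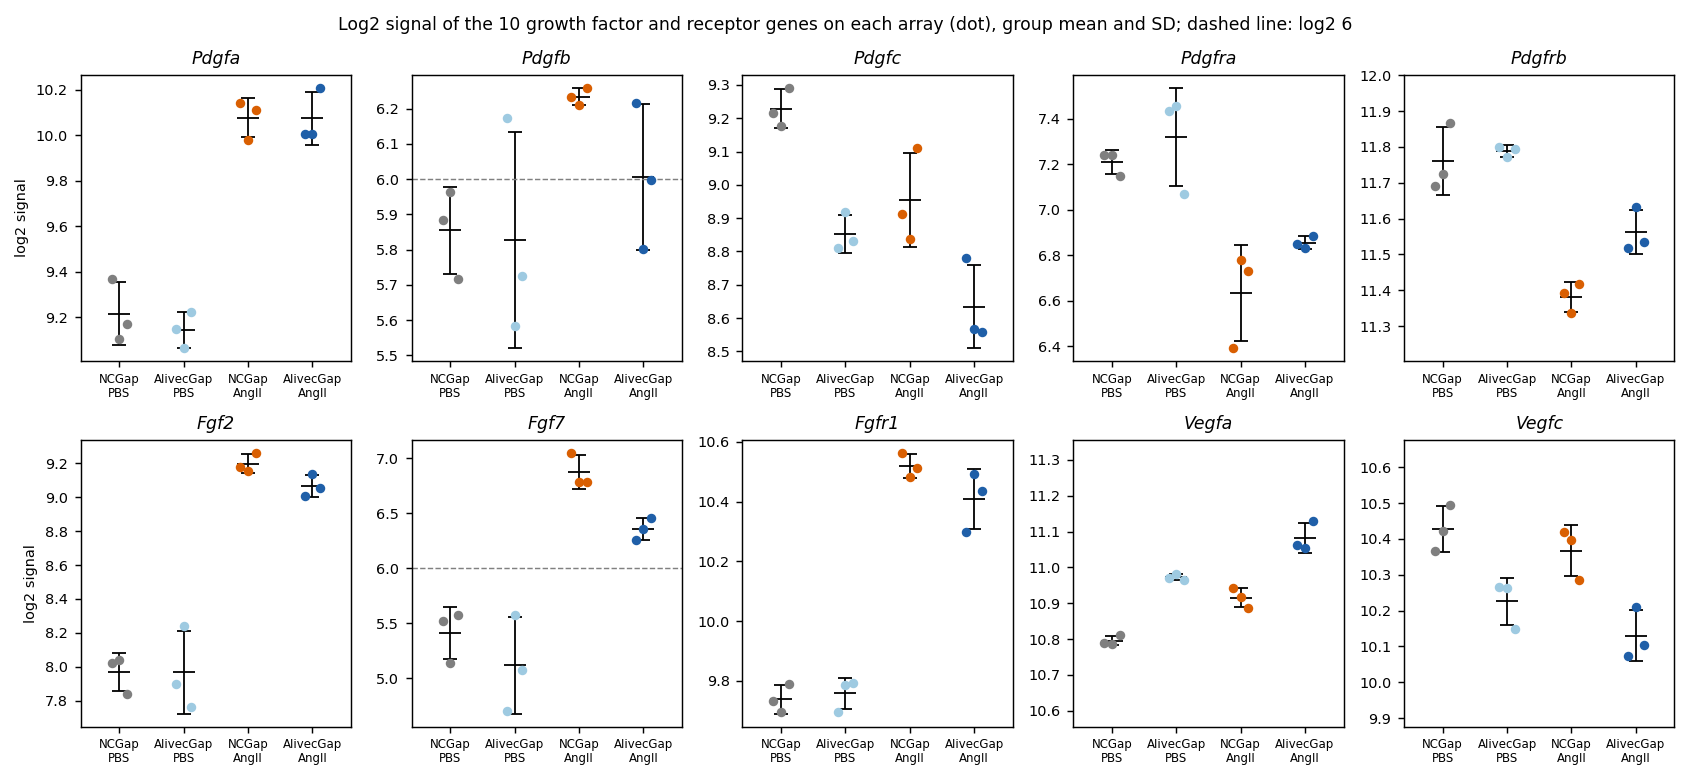
Log2 signal of the 10 genes on each of the 12 arrays (dots), with the mean and SD of each group of 3; each panel has its own vertical range, and a dashed line marks log2 6 where it falls in the panel. All 6 AngII arrays lie above all 6 PBS arrays for *Pdgfa*, *Fgf2*, *Fgf7* and *Fgfr1* and below them for *Pdgfra* and *Pdgfrb*, and the *Fgf7* dots of the PBS groups all lie under the dashed line.

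AngII against PBS with NCGap asks how the growth factor genes respond to the hormone in control cells. Of the 10 genes, *Pdgfa*, *Fgf2*, *Fgf7* and *Fgfr1* rose and *Pdgfc*, *Pdgfra* and *Pdgfrb* fell. Among these 10, the PDGF receptors and the FGF genes thus moved in opposite directions. These are 7 of 10 genes, against 31.2% of all probe sets tested. The 4 that rose compare with 13.3% of all probe sets called higher, and the 3 that fell with 17.9% called lower. *Fgf7*, which is in these counts, passed the filter only through its AngII arrays, so its call is no support for them. At the study's own thresholds, a fold change of at least 1.2 with an unadjusted p under 0.05, 8 of 10 genes were called against 31.2% of all probe sets, *Pdgfb* being the addition. The NCGap groups did not overlap for 9 of 10 genes, against 42.2% of all probe sets. This count and the 8 of 10 include *Pdgfb*, which passed the filter only with its NCGap AngII arrays, so *Pdgfb* is no support for them.

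Among the PDGF ligands, *Pdgfa* encodes the A chain, which binds the alpha receptor. Its log2 signal was 9.37, 9.10 and 9.17 on the NCGap PBS arrays and 10.14, 9.98 and 10.11 on the NCGap AngII arrays. The 3 AngII arrays lay well above the 3 PBS arrays, with a log2 difference of 0.86 (SE 0.0891), a 1.82-fold rise (limma adjusted p = 1.64e-05). In cells with *Alivec*Gap it was 9.15, 9.06 and 9.22 with PBS and 10.00, 10.01 and 10.21 with AngII. The separation was again complete, at 0.93 on the log2 scale, or 1.90-fold (limma adjusted p = 1.23e-05).

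*Pdgfb* encodes the B chain, which binds both PDGF receptors and drives smooth muscle proliferation. Its signal was close to the low limit, at 5.88, 5.96 and 5.72 with NCGap and PBS and 6.23, 6.21 and 6.26 with NCGap and AngII. The groups did not overlap, but the difference of 0.38 (95% confidence interval 0.07 to 0.69) had a limma adjusted p of 0.0580. With the PBS mean set to log2 6, the means differed by 1.18-fold, a value that leaves out the spread of the arrays and is no minimum. With *Alivec*Gap the arrays were at 6.17, 5.58 and 5.73 with PBS and 6.22, 5.80 and 5.999 with AngII, which overlapped, and the difference was 0.18 (limma adjusted p = 0.398). The call with NCGap was gained when *Alivec*Gap PBS replicate 1, *Alivec*Gap PBS replicate 2 or *Alivec*Gap AngII replicate 1 was left out of the shared fit (adjusted p 0.0176 to 0.0498), and with only the groups compared (0.0149), quantile normalization once more (0.0275) or centred arrays (0.0284).

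*Pdgfc* encodes a ligand that is secreted in latent form and freed by proteolysis, for which tissue plasminogen activator is a known enzyme. Its signal was 9.22, 9.18 and 9.29 with NCGap and PBS and 8.91, 8.84 and 9.11 with NCGap and AngII. Every AngII array was below every PBS array, and the fall was 0.28 on the log2 scale, to 0.826 of the PBS level (limma adjusted p = 0.0287). The *Alivec*Gap arrays were at 8.81, 8.92 and 8.83 with PBS and 8.78, 8.57 and 8.56 with AngII, a difference of -0.22 (limma adjusted p = 0.0844) without overlap. The call with NCGap was lost without NCGap PBS replicate 1 (adjusted p = 0.0641), NCGap PBS replicate 3 (0.0844), NCGap AngII replicate 1 (0.0857) or NCGap AngII replicate 2 (0.116), and with arrays centred on their medians (0.0911), no filter (0.0636) or only the groups compared (0.0635). With *Alivec*Gap it was gained without *Alivec*Gap AngII replicate 1 (0.0386).

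Both PDGF receptors fell. *Pdgfra*, the alpha receptor, is also a marker of fibroblasts, and its signal was 7.24, 7.24 and 7.15 with NCGap and PBS and 6.39, 6.78 and 6.73 with NCGap and AngII. The highest AngII array was below the lowest PBS array, and the level fell by 0.58 on the log2 scale, to 0.670 of the PBS level (SE 0.115, limma adjusted p = 0.00234). The *Alivec*Gap arrays were at 7.43, 7.46 and 7.07 with PBS and 6.85, 6.83 and 6.89 with AngII. The groups stayed apart and the ratio was 0.724 (limma adjusted p = 0.0105). Because these are whole cultures, fewer cells of a type and less RNA per cell cannot be told apart. The adventitial fibroblast markers had a list mean of 7.45 to 7.55 per array with NCGap and PBS and 7.33 to 7.44 with NCGap and AngII. Of the 6 tested, 1, *Lum*, fell (-0.35 on the log2 scale, adjusted p = 0.00617), near the 17.9% of all probe sets called lower. With *Alivec*Gap the list means overlapped, at 7.53 to 7.65 with PBS and 7.53 to 7.63 with AngII. Their part in the *Pdgfra* result was not tested.

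*Pdgfrb*, the beta receptor, is the main PDGF receptor of smooth muscle and also marks pericytes. Its signal was 11.69, 11.73 and 11.87 with NCGap and PBS and 11.39, 11.34 and 11.42 with NCGap and AngII. The AngII arrays were lower throughout, and the fall was 0.38 on the log2 scale (SE 0.0663), to 0.769 of the PBS level (limma adjusted p = 9.51e-04). After *Alivec*Gap, arrays were at 11.80, 11.77 and 11.79 with PBS and 11.52, 11.63 and 11.54 with AngII. They did not overlap either, with a ratio of 0.855 (limma adjusted p = 0.0247), a change smaller than the study's fold threshold. That second call was lost without any 1 of *Alivec*Gap PBS replicates 1 (adjusted p = 0.0680), 2 (0.0554) and 3 (0.0640) or *Alivec*Gap AngII replicates 1 (0.0844) and 3 (0.0705), and with no filter (0.0660) or centred arrays (0.0594). Of the other pericyte markers, 7 were tested. With NCGap 3 rose and 0 fell, against 13.3% and 17.9% of all probe sets. Those that rose include *Mcam* (0.67, adjusted p = 5.64e-06) and *Cspg4* (0.66, adjusted p = 1.71e-05). With *Alivec*Gap 2 rose and 1 fell, against 10.8% and 15.6%. The part of these markers in the *Pdgfrb* result was not tested.

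All 3 FGF genes described here rose, while *Fgf16* and *Fgfr2*, given below, fell. *Fgf2*, basic FGF, lacks a classical secretion signal and is a mitogen of smooth muscle. Its signal was 8.02, 8.04 and 7.84 with NCGap and PBS and 9.18, 9.16 and 9.26 with NCGap and AngII. More than a full log2 unit separated the nearest arrays, and the rise was 1.23 (SE 0.107), or 2.35-fold (limma adjusted p = 3.97e-06). After *Alivec*Gap, *Fgf2* was at 7.90, 8.24 and 7.77 with PBS and 9.01, 9.14 and 9.06 with AngII. These groups were also apart, with a rise of 1.10, or 2.14-fold (limma adjusted p = 1.42e-05).

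*Fgf7*, keratinocyte growth factor, is made by mesenchymal cells and acts on epithelial cells through a splice form of *Fgfr2*. Its signal was 5.53, 5.14 and 5.57 with NCGap and PBS and 7.05, 6.79 and 6.79 with NCGap and AngII. No PBS array reached log2 6 and every AngII array passed it. The fitted log2 difference was 1.46 (SE 0.184, limma adjusted p = 7.93e-05). With the PBS mean set to 6, the group means differed by at least 1.84-fold, a bound that leaves out the spread of the arrays. After *Alivec*Gap, *Fgf7* was at 4.70, 5.58 and 5.08 with PBS and 6.26, 6.36 and 6.46 with AngII. Here too the limit lay between the groups, and the fitted log2 difference was 1.24 (limma adjusted p = 3.89e-04). With the PBS mean set to 6, the means differed by at least 1.28-fold, on the same terms.

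*Fgfr1* encodes the FGF receptor of mesenchymal cells that FGF2 binds. Its signal was 9.73, 9.70 and 9.79 with NCGap and PBS and 10.56, 10.48 and 10.51 with NCGap and AngII. The spread within each group was small beside the gap between them, and the rise was 0.78 (SE 0.0681), or 1.72-fold (limma adjusted p = 3.94e-06). With *Alivec*Gap the arrays were at 9.70, 9.78 and 9.79 with PBS and 10.30, 10.49 and 10.44 with AngII. The rise was 0.65, or 1.57-fold (limma adjusted p = 2.43e-05), again with no overlap.

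Neither VEGF ligand passed the test with AngII. *Vegfa*, the main endothelial VEGF and a hypoxia-induced gene, was at 10.79, 10.79 and 10.81 with NCGap and PBS and 10.94, 10.92 and 10.89 with NCGap and AngII. The groups did not overlap, but the difference was 0.12 (95% confidence interval -0.00 to 0.24), or 1.09-fold (limma adjusted p = 0.126). *Vegfc*, the ligand of lymphatic endothelium, was at 10.37, 10.42 and 10.49 with NCGap and PBS and 10.42, 10.40 and 10.29 with NCGap and AngII. These overlapped, and the difference was -0.06 (95% confidence interval -0.21 to 0.09, limma adjusted p = 0.567). With *Alivec*Gap the AngII differences were 0.11 for *Vegfa* (adjusted p = 0.177) and -0.10 for *Vegfc* (adjusted p = 0.357). The *Vegfa* call with NCGap was gained with centred arrays (adjusted p = 0.0468) and without moderation of the spread (0.00434), which also gave it with *Alivec*Gap (0.00824).

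With *Alivec*Gap as a whole, 6 of 10 genes were called after AngII against 26.3% of all probe sets, with 4 higher against 10.8% and 2 lower against 15.6%. The counts again include *Fgf7*, which passed the filter only through its AngII arrays. At the study's thresholds 5 of 10 were called against 27.7%, and 8 of 10 did not overlap against 43.5%. The difference between the AngII effects of both GapmeRs was tested as an interaction, and 0 of 10 genes passed, as did 0 of the 14796 probe sets (0.00%), with 814 of all probe sets and 0 of the 10 genes at an unadjusted p under 0.05. Adjusted p-values of the 10 genes ran from 0.928 to 0.995. For *Pdgfrb* the interaction was 0.15 (95% confidence interval -0.05 to 0.36) and for *Fgf2* -0.13 (-0.46 to 0.20). No size is read for *Fgf7* and *Pdgfb*, whose PBS means were under log2 6 with both GapmeRs. These intervals still hold sizeable differences, so the AngII effects of both GapmeRs are not shown to be equal. Averaged over the GapmeRs, an alternative added after the values were seen, 9 of 10 genes passed against 42.3% of all probe sets, the additions being *Pdgfb* (adjusted p = 0.0387, its PBS means being under log2 6) and *Vegfa* (0.11, adjusted p = 0.0331). Each of these additions was lost on leaving out any of 9 of the 12 arrays (adjusted p 0.0597 to 0.0960 for *Pdgfb* and 0.0503 to 0.0742 for *Vegfa*). The 9 of 10 genes include *Fgf7* and *Pdgfb*, which would not have passed the filter without AngII arrays, so neither gene is support for that count.

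**Figure D2:**
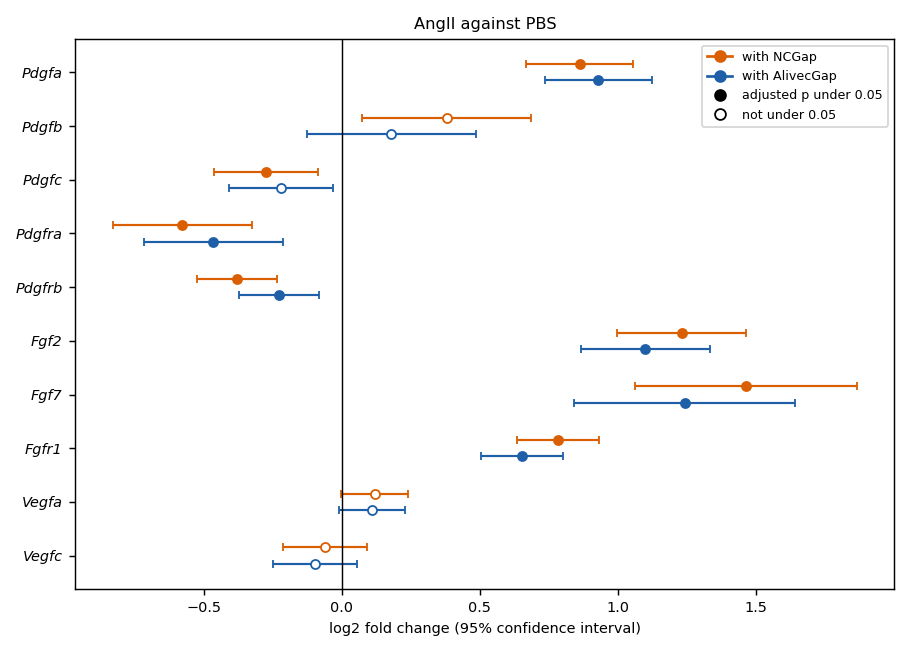
Log2 fold change of AngII against PBS (horizontal axis) with its 95% confidence interval for each of the 10 genes, with NCGap and with *Alivec*Gap; filled circles have a limma adjusted p under 0.05. The FGF genes and *Pdgfa* lie to the right of 0 (0.65 to 1.46), the PDGF receptors to the left (-0.58 to -0.23), and the VEGF ligands near 0.

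*Alivec*Gap against NCGap gives the effect of this GapmeR on the genes, without and with AngII. With a single GapmeR, loss of *Alivec* and other effects of the GapmeR cannot be told apart. No gene of the 10 passed the adjusted threshold in either state. *Pdgfc* and *Vegfc* had lower signals with *Alivec*Gap and *Vegfa* a higher one in both states, and these differences were small, between 0.77-fold and 1.13-fold. With PBS, 0 of 10 genes were called against 0.399% of all probe sets, and at the study's thresholds 1 of 10, *Pdgfc*, against 4.93%. An unadjusted p under 0.05 was reached by 3 of 10 genes and by 1426 of the 14796 probe sets. The groups did not overlap for 3 of 10 genes, *Pdgfc*, *Vegfa* and *Vegfc*, against 14.2% of all probe sets. With AngII, 0 of 10 were called against 0.818% (5 at an unadjusted p under 0.05), 2 of 10, *Pdgfc* and *Fgf7*, met the study's thresholds against 6.10%, and 7 of 10 did not overlap against 18.2%. A model without moderation of the spread called 1 gene with PBS and 1 with AngII, *Vegfa* in both cases.

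The *Pdgfc* arrays given above lay between 8.81 and 8.92 with *Alivec*Gap and between 9.18 and 9.29 with NCGap in PBS, so a gap separated the groups. The difference was -0.38 (95% confidence interval -0.56 to -0.19, limma adjusted p = 0.105), or a ratio of 0.771. With AngII they lay between 8.56 and 8.78 against 8.84 and 9.11, also apart, with a ratio of 0.802 (difference -0.32, limma adjusted p = 0.128). The adjusted p with PBS was 0.0187 with a prior that follows the signal and 0.0486 with array weights, and with AngII 0.0436 with that prior.

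*Vegfc* was at 10.26, 10.26 and 10.15 with *Alivec*Gap and PBS and at 10.07, 10.21 and 10.11 with *Alivec*Gap and AngII. Each of these 6 arrays was below all NCGap arrays of the same treatment. The ratios were 0.870 with PBS (difference -0.20, limma adjusted p = 0.324) and 0.848 with AngII (difference -0.24, limma adjusted p = 0.174). *Vegfa* moved the other way, at 10.97, 10.98 and 10.96 with *Alivec*Gap and PBS and 11.06, 11.05 and 11.13 with *Alivec*Gap and AngII. All of these were above the NCGap arrays of the same treatment, by 0.18 with PBS (95% confidence interval 0.06 to 0.30, limma adjusted p = 0.264) and 0.17 with AngII (0.04 to 0.29, limma adjusted p = 0.246). With the prior that follows the signal, *Vegfc* passed with AngII (adjusted p = 0.0360), and without moderation *Vegfa* passed with PBS (0.0473) and with AngII (0.0276).

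*Fgf7* with AngII was at 6.26, 6.36 and 6.46 with *Alivec*Gap against 7.05, 6.79 and 6.79 with NCGap. The groups did not overlap, and the difference was -0.52 (95% confidence interval -0.92 to -0.12), a ratio of 0.699 (limma adjusted p = 0.279). In PBS both groups were under log2 6, so no fold is given. *Pdgfrb* with AngII was higher with *Alivec*Gap on every array, by 0.18 (95% confidence interval 0.04 to 0.32, limma adjusted p = 0.304), and *Pdgfra* by 0.22 (-0.03 to 0.47, limma adjusted p = 0.500). The call of *Pdgfrb* was gained with the prior that follows the signal (adjusted p = 0.0470). Beside these receptor values, the adventitial fibroblast markers had list means of 7.53 to 7.63 per array with *Alivec*Gap and AngII against 7.33 to 7.44 with NCGap and AngII. Of 6 such markers tested, *Dcn* (0.58, adjusted p = 0.0283) and *Mfap5* (0.49, adjusted p = 0.0461) rose, where 0.818% of all probe sets were called. With PBS 0 of the 6 passed, but *Dcn* was at 9.28 with *Alivec*Gap against 8.78 with NCGap, and *Mfap5* at 9.43 against 9.09. In PBS *Pdgfrb* differed by 0.03 and *Pdgfra* by 0.11. The part of these markers in the receptor values was not tested.

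The remaining genes differed little with *Alivec*Gap. *Pdgfa* differed by -0.07 with PBS (95% confidence interval -0.26 to 0.12) and by -0.00 with AngII (-0.20 to 0.19). *Fgf2* differed by 0.00 with PBS (-0.23 to 0.23) and -0.13 with AngII (-0.37 to 0.10), and *Fgfr1* by 0.02 (-0.13 to 0.17) and -0.11 (-0.26 to 0.04). Each of these intervals includes 0 and does not show that the levels were equal. *Pdgfb* was under log2 6 on average in both PBS groups, and with AngII, close to that limit, it differed by -0.23 (-0.53 to 0.08).

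Averaging the *Alivec*Gap effects with PBS and with AngII, an alternative added after the values were seen, gave 3 of 10 genes past the threshold against 2.73% of all probe sets. *Pdgfc* fell by 0.35 on the log2 scale, to a ratio of 0.786 (limma adjusted p = 0.0109), *Vegfc* by 0.22, to 0.859 (adjusted p = 0.0354), and *Vegfa* rose by 0.17, or 1.13-fold (adjusted p = 0.0392). The *Pdgfc* call remained on leaving out each of the 12 arrays. The *Vegfa* call was lost on leaving out any 1 of the 12 (adjusted p 0.0504 to 0.0969), and the *Vegfc* call on leaving out any array except *Alivec*Gap AngII replicate 2 and NCGap AngII replicate 3 (adjusted p 0.0525 to 0.101).

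*Pdgfc* and *Vegfc* are also the longest of the 10 genes, spanning 178 kb and 116 kb in the RefSeq annotation of GRCr8, whereas the other 8 span 15.3 to 55.2 kb. Among tested probe sets of genes with an annotated span, 1122 were of genes of at least 100 kb and 9064 of shorter genes. Of the 1122, 13.1% met the study's thresholds as lower after *Alivec*Gap in AngII-treated cells, against 1.95% of the 9064. With PBS the shares were 8.47% and 1.79%. The part of gene length in the *Pdgfc* and *Vegfc* values was not tested.

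**Figure D3:**
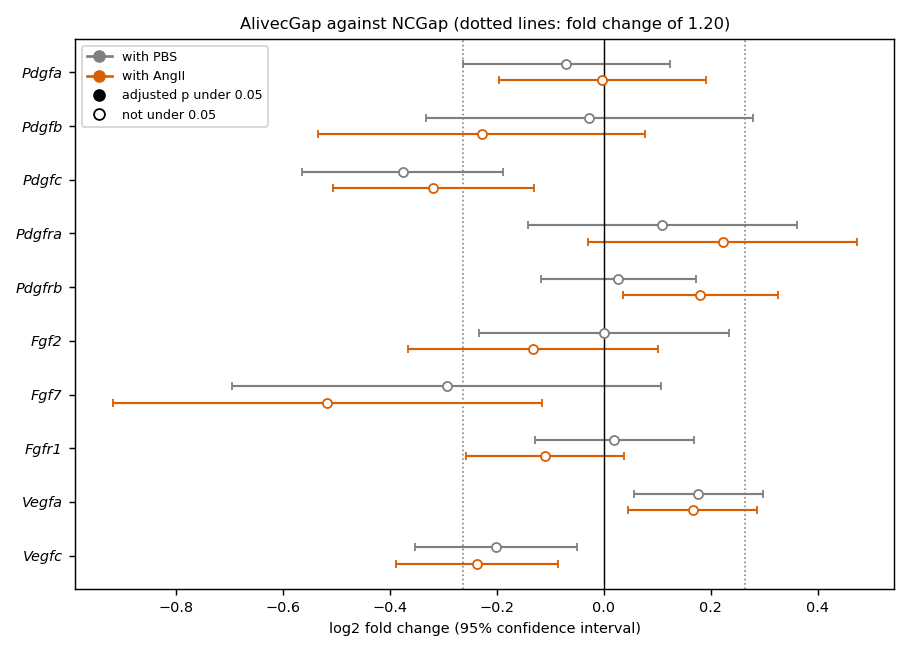
Log2 fold change of *Alivec*Gap against NCGap (horizontal axis) with its 95% confidence interval for each of the 10 genes, with PBS and with AngII; open circles have a limma adjusted p not under 0.05, and dotted lines mark the study's fold change of 1.2. All circles are open, *Pdgfc* lies left of the lower dotted line in both states (-0.38 and -0.32), and *Fgf7*, whose means were under log2 6 in both PBS groups, has the widest intervals.

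Other genes of these pathways were followed as lists. Of 24 other ligands of the 3 families, 16 were tested, and with NCGap 0 rose and 3 fell after AngII, with a median log2 difference of -0.09 beside -0.05 for all probe sets. For this and the lists that follow, the share of all probe sets called was 13.3% higher and 17.9% lower, so the 3 lower of 16 are near the share of all probe sets. *Fgf16*, a member of the FGF9 subfamily, fell by 1.99 (adjusted p = 4.90e-06), *Pgf*, placental growth factor and a ligand of FLT1, by 0.42 (adjusted p = 0.00325) and *Vegfb*, another FLT1 ligand, by 0.27 (adjusted p = 0.0192). None of the 16 rose beside *Fgf2* and *Fgf7*.

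Of 12 other receptors and coreceptors, 8 were tested, and 2 rose and 1 fell, too few to set apart from the shares of all probe sets. *Flt1*, a VEGF receptor that binds VEGFA, VEGFB and placental growth factor, rose by 1.82 (3.52-fold, adjusted p = 1.41e-07). *Nrp2*, a coreceptor for VEGFC, rose by 0.57 (adjusted p = 0.00279), and *Fgfr2*, whose epithelial splice form FGF7 binds, fell by 0.85 (adjusted p = 1.26e-05). The VEGF receptors *Kdr* and *Flt4*, named after their values were seen, were under log2 6 on all 12 arrays, between 5.48 and 5.94 and between 3.87 and 5.78, and were not tested.

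Of 26 genes that release ligands from matrix or build heparan sulfate, 20 were tested, with 6 higher, 4 lower, the latter near the share of all probe sets, and a median of -0.04. *Plat*, tissue plasminogen activator, rose by 1.93 (3.81-fold, adjusted p = 1.01e-07) while its substrate gene *Pdgfc* fell. *Sdc4*, a heparan sulfate proteoglycan that binds FGF2, rose by 1.13 (adjusted p = 3.91e-07), and *Hs6st1*, a heparan sulfate sulfotransferase, fell by 1.78 (adjusted p = 7.61e-09). Of 32 signal transducers, 26 were tested, with 8 higher and 3 lower and a median of 0.09. Among them *Rasa1*, a Ras GTPase-activating protein, rose by 0.77 (adjusted p = 7.21e-06), and *Gab1*, a docking protein of receptor tyrosine kinases, fell by 0.56 (adjusted p = 9.26e-05).

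The ERK feedback and target genes had the largest median of the 6 lists. Of its 23 genes 19 were tested, and 18 rose and 0 fell, with a median of 1.27. *Fosl1*, an AP-1 component, rose by 4.09 (17.0-fold), *Spry2*, an inhibitor of receptor tyrosine kinase signalling, by 2.43 (5.39-fold), and *Egr1*, an immediate early transcription factor, by 2.27 (4.81-fold), each with an adjusted p at or under 7.14e-10. AngII also feeds into ERK directly, and the share of each route was not tested. Of 22 hypoxia genes, which share regulation with *Vegfa*, 16 were tested, with 3 higher and 3 lower, near the shares of all probe sets, and a median of -0.03. *Slc2a1*, the glucose transporter GLUT1, rose by 0.90 (adjusted p = 2.52e-06), and *Pfkfb4*, a glycolytic regulator, fell by 0.75 (adjusted p = 2.66e-04).

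With *Alivec*Gap the same 6 lists, with 105 genes tested, gave 0 calls with PBS, where 0.399% of all probe sets were called, and 4 with AngII, where 0.818% were, all 4 lower. These were *Fgf13*, an intracellular FGF homologue (-0.51, adjusted p = 0.0265), *Hs6st2*, a heparan sulfate sulfotransferase (-0.55, adjusted p = 0.0265), *Pcsk5*, a proprotein convertase (-0.45, adjusted p = 0.0203), and *Pdk1*, a hypoxia-induced mitochondrial kinase (-0.44, adjusted p = 0.0461). *Fgf13*, *Hs6st2* and *Pcsk5* span 526, 295 and 431 kb, and *Pdk1* 30.7 kb.

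**Figure D4:**
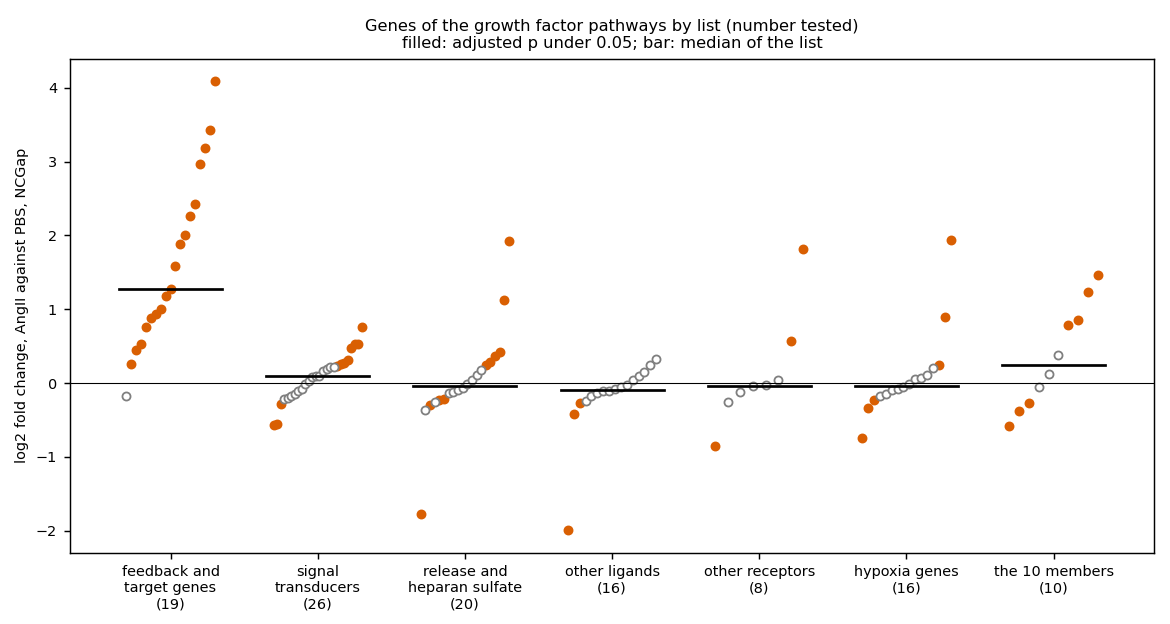
Log2 fold change of AngII against PBS with NCGap (vertical axis) for every tested gene of 6 pathway lists and the 10 genes of the report; filled dots have a limma adjusted p under 0.05 and bars are list medians. The feedback and target genes have a median of 1.27 with 18 of 19 filled above 0, while the other 5 pathway lists have medians between -0.09 and 0.09 and hold genes on both sides of 0.

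For the gene of each family with the largest fitted mean AngII difference, the named genes with the most similar signal over the 12 arrays were listed by Pearson correlation, as a description. *Pdgfa* was most like *Vasn* (0.989), *Tbrg4* (0.988) and *Pvr* (0.988), and *Fgf7* most like *Slc1a4* (0.978), *Rgs16* (0.978) and *Arf2* (0.976). The 6 PBS signals of *Fgf7* were all under log2 6, so its likeness rests partly on values at low or no expression, and its bounds of 0.88 and 0.36 with NCGap and *Alivec*Gap are below the *Fgf2* differences. *Vegfa* was most like *Gadd45a* (0.951), *Gda* (0.947) and *Ppid* (0.934). The 12 arrays fall into AngII and PBS sets; the correlations include that split.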

How the data were processed

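Total RNA of 12 RVSMC cultures was profiled on Clariom S rat arrays, 3 per group, which the study calls independent replicates. Per the labels and methods, the authors deposited log2 signals made by Robust Multichip Average in Partek Genomics Suite 6.6, and that log2 scale was used here; the build of the array annotation is not given in the sources used here. Gene names came from the platform annotation, with 15049 probe sets carrying 1 name, 0 several and 8139 none. Group means were fitted over all 12 arrays with limma 3.58.1 in R 4.3.3 (lmFit and eBayes), for probe sets at log2 6 or more on at least 3 arrays, and p-values were adjusted by Benjamini-Hochberg over 14796 probe sets. The methods name analysis of variance in Partek; its unmoderated form was an alternative. No 2 arrays held identical values. Alternatives changed the moderation, samples, filter, scaling, block, array weights and probe sets, and left out each array in turn. The scripts were tested on simulated data. The members, lists and tests were chosen with earlier results of these data known. Named genes were the 10 members and, of each list, the 4 with the smallest p for AngII with NCGap and any called with *Alivec*Gap, of which the text gives some; the likeness rule took 3 genes a family. Where 1 group mean was under log2 6, it was set to 6 for a bound on the fold between the means, which leaves out the spread of the arrays. The p-values cover only the spread among the 12 arrays, whose number limits the precision.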

Additional observations from a re-analysis of the deposited data

How the results depend on the processing

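The AngII calls of *Pdgfa*, *Pdgfra*, *Fgf2*, *Fgf7* and *Fgfr1* held with both GapmeRs under every alternative that could be fitted, as did that of *Pdgfrb* with NCGap; *Fgf7* and *Pdgfb* have no value under a filter on the mean of all arrays, nor *Pdgfc* and *Vegfc* once genes of at least 100 kb are left out. With NCGap 7 genes were called after AngII, 6 to 8 over the alternatives and 6 to 8 leaving out single arrays. With *Alivec*Gap 6 were called, 5 to 7 and 5 to 6. For *Alivec*Gap against NCGap with PBS, 0 were called and 1 without moderation of the spread, 1 with a prior that follows the signal and 1 with array weights. With AngII 0 were called, 1 without moderation and 3 with that prior, and leaving out single arrays gave 0 in both states. At the study's thresholds the counts leaving out single arrays were 6 to 8 (AngII, NCGap), 5 to 6 (AngII, *Alivec*Gap), 1 to 2 (*Alivec*Gap, PBS) and 1 to 3 (*Alivec*Gap, AngII), and 1 gene remained with *Alivec*Gap and AngII under the filter on the mean. The interaction gave 0 throughout.

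Signs turned only for differences that were not called. With quantile normalization once more, the PBS differences of *Alivec*Gap against NCGap became -0.0127 for *Fgf2*, 0.00482 for *Pdgfb* and -5.76e-04 for *Fgfr1*, that of *Pdgfa* with AngII 0.00785 and the *Vegfa* interaction 0.00781, and array weights gave -0.0239 for *Fgf2* with PBS. Leaving out single arrays, the PBS differences ran from -0.134 to 0.102 for *Fgf2*, -0.200 to 0.0947 for *Pdgfb*, -0.00228 to 0.0502 for *Fgfr1*, -0.125 to 0.00716 for *Pdgfa* and -0.00798 to 0.0807 for *Pdgfrb*, and that of *Pdgfa* from -0.0708 to 0.0317 with AngII and -0.0704 to 0.0021 averaged over both. The interactions ran from -0.0344 to 0.00386 for *Vegfa*, -0.0101 to 0.122 for *Pdgfa*, -0.0124 to 0.186 for *Pdgfra*, -0.0152 to 0.136 for *Pdgfc*, -0.234 to 0.00253 for *Fgf2* and -0.432 to 0.00625 for *Fgf7*. Of these, the *Fgf7* interaction and the *Pdgfb* difference rest on PBS means under log2 6, so their values are given for the sign only and not as sizes. The cause was not tested.

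The labels give replicate numbers, but 18 same-numbered pairs of arrays correlated at -0.09 to 0.32 in their deviations, 9 of them over 0.1, and 9 of 12 arrays correlated best with their own number, a hint from the data that the labels do not state. Since a pairing was accepted only where every pair passed 0.1, the block was kept as an alternative. With the replicate number as a block, *Pdgfb* passed after AngII with NCGap (adjusted p = 0.0343) and *Vegfa* no longer passed in the averaged *Alivec*Gap effect (adjusted p = 0.0540); with the block no other call of the 10 genes changed. Over all probe sets, *Alivec*Gap against NCGap gave 59 calls with PBS, 1 to 204 over the alternatives and 3 to 106 leaving out single arrays, and 121 with AngII, 25 to 335 and 18 to 156. AngII against PBS gave 4620 calls with NCGap (3072 to 5351) and 3894 with *Alivec*Gap (2535 to 4484).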
